A study of Mus musculus with 12 samples.

Results

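The 10 genes described here encode the core of the adherens junction, the belt of cell-cell adhesion below the apical surface of epithelial cells. They are Ctnna1, Ctnnb1, Ctnnd1, Cdh1, Cdh3, Jup, Vcl, Afdn, Pvrl2 and Pvrl4, and they were taken by symbol from a raw count table of 23337 gene rows. Afdn was listed under its older symbol Mllt4, and Pvrl2 and Pvrl4 are older symbols of nectin 2 and nectin 4. All 10 passed the filter on low counts that left 12406 genes for testing. The list was built around Ctnna1, and its members were chosen by the measured values of that gene, which was lower after Stag2 knockdown in both cell states. The values of the 10 genes under knockdown, and every value of Ctnna1, are therefore a description. Counts of these genes past a threshold are printed beside the share of all genes, and nothing is read from them.

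Classical cadherins span the membrane and bind those of the neighbouring cell. Their tails bind p120-catenin, which keeps them at the surface, and beta-catenin or plakoglobin, which in turn bind alpha-catenin. Alpha-catenin links this complex to actin filaments and opens under tension to bind vinculin. Nectins form a second adhesion system, which reaches actin through afadin. In the urothelium, the lining of the bladder, these contacts hold together a sheet that is stretched at each filling.

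RNA sequencing had been done on 12 libraries of NU1, a mouse urothelial line that arose spontaneously during serial passaging. The 4 groups had 3 libraries each, from experiments 5, 7 and 9: proliferating cells with shNT (control) or sh4 (labelled Stag2-KD), and quiescent cells with either hairpin. Every group carried a lentiviral hairpin and was grown in medium with EGF at 5 ng/ml and calcium chloride at 0.3 mM. Quiescent cells had been grown to confluence and then given 1 µM rosiglitazone, an agonist of PPAR gamma, and 0.5 µM erlotinib, an inhibitor of the EGF receptor kinase, and are labelled day 7. The Stag2 protein belongs to cohesin, a ring-shaped complex around DNA that shapes chromosome loops. The labels name a single hairpin against Stag2, so loss of Stag2 and any other effect of that hairpin cannot be told apart. Likewise, confluence and the drugs cannot be told apart within quiescence. Nothing in the labels says that the experiments were separate cultures, so p-values measure the spread between these libraries only.

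Library totals ran from 14524429 to 21987539 counts. Levels are in CPM, counts scaled to a common TMM-adjusted library size. Stag2, the targeted gene, was 113 to 145 CPM in proliferating controls and 24.6 to 33.3 CPM after knockdown, and 107 to 128 and 9.43 to 15.3 CPM in quiescent cells. Of 15 urothelial and epithelial markers, the simple-epithelial keratins Krt7, Krt8, Krt18 and Krt19 were above 1125 CPM in every library. The basal keratins Krt5 and Krt14 did not exceed 6.60 and 10.6 CPM, and the uroplakins Upk1a, Upk1b and Upk2 did not exceed 3.94, 2.23 and 1.45 CPM. Upk3a did not exceed 0.0453 CPM and Trp63 was at 0 in every library, so these basal and umbrella cell markers were low beside the simple-epithelial keratins. Krt14 averaged 9.08 CPM in proliferating and 0.497 CPM in quiescent controls. Epcam was 391 to 888, Elf3 77.3 to 518, Gata3 26.5 to 118 and Foxa1 9.49 to 84.8 CPM across libraries. The summed level of the 15 markers was 20198 to 21841 CPM in quiescent knockdown libraries and 10665 to 17179.9 CPM in the other groups. Its part in the results was not tested. Markers of fibroblasts, smooth muscle, endothelium and immune cells summed to at most 2.27, 0.716, 0.239 and 9.72 CPM in any library.

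Levels of different genes were compared as CPM per kb, using the length of all annotated exons in GENCODE M21. In proliferating controls the order was Cdh1 at 261 ± 108, Ctnna1 at 226 ± 37.5, Ctnnb1 at 202 ± 48.5, Ctnnd1 at 94.1 ± 22.5, Jup at 92.9 ± 22.7 and Pvrl2 at 66.3 ± 7.82 CPM per kb (SD, n = 3). The levels of Mllt4, Vcl, Cdh3 and Pvrl4 followed at 43.0 ± 10.1, 41.8 ± 10.6, 23.9 ± 1.60 and 20.2 ± 7.77 CPM per kb (SD, n = 3). Neighbours in this order overlapped, except at the steps from Ctnnb1 to Ctnnd1, from Pvrl2 to Mllt4 and from Vcl to Cdh3. So E-cadherin and alpha- and beta-catenin formed the most abundant tier, and P-cadherin and nectin 4 the lowest. After knockdown Ctnna1 moved from rank 2 to rank 3 in proliferating cells, where it overlapped Jup. In quiescent cells it moved from rank 3 to rank 7, at 69.0 ± 7.34 CPM per kb (SD, n = 3), next below Vcl at 84.8 ± 11.2 CPM per kb (SD, n = 3).

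Ctnna1 (ENSMUSG00000037815.7, GRCm38 chr18:35118859-35254779, + strand) encodes alpha-catenin, the actin link of the cadherin complex. In proliferating cells of experiments 5, 7 and 9 its level was 1619, 1564 and 1177 CPM in control and 901, 751 and 504 CPM with the Stag2 hairpin. Quiescent cells gave 1764, 1368 and 1373 CPM in control and 439, 493 and 399 CPM with the Stag2 hairpin. Control and knockdown libraries did not overlap in either state, and within each experiment the knockdown library was the lower of the pair. The level that remained in experiments 5, 7 and 9 was 55.6%, 48.0% and 42.8% of control in proliferating cells, and 24.9%, 36.0% and 29.1% in quiescent cells. The fitted log2 fold change was -1.02 (SE 0.22) in proliferating and -1.76 (SE 0.22) in quiescent cells, or 2.02-fold and 3.39-fold lower.

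Few genes lost as much RNA. The mean level of Ctnna1 fell by 735 CPM in proliferating cells, rank 2 of 12406 genes by lost CPM, and by 1058 CPM in quiescent cells, rank 4. Lost CPM grows with the level of a gene, and Ctnna1 ranked 34 of 12406 by mean log2 CPM in controls. Cdh1 fell by 617 CPM in quiescent cells, rank 7. By log2 fold change the ranks of Ctnna1 from the lowest were 58 and 42. Of the 10 genes, 0 were past an edgeR adjusted p of 0.05 for knockdown in proliferating cells, against 0.0242% of all genes, and 1 was past an unadjusted p of 0.05, against 1.84%. DESeq2 called 1 of the 10 there, against 0.0967% of all genes. In quiescent cells edgeR called 1 of the 10, against 0.435% of all genes. The gene counted was Ctnna1 in each case, and these comparisons chose it.

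The knockdown difference of Ctnna1 was larger in quiescent cells in each experiment. Quiescent minus proliferating differences in log2 CPM were -1.16, -0.41 and -0.56 in experiments 5, 7 and 9, and the fitted value was -0.74 (SE 0.30). This difference was not given a test, since it is built from the comparisons that chose the gene. Stag2 itself also differed more in quiescent cells, by -1.05 (SE 0.26) on the log2 scale. Across all genes, edgeR called 0 for this difference, with 219 at an unadjusted p under 0.05 (590 with a term for experiment), and DESeq2 called 6.

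In control cells Ctnna1 hardly differed between the states, with a log2 fold change for quiescence of 0.05 (SE 0.21) and differences of 0.12, -0.19 and 0.22 in experiments 5, 7 and 9. In knockdown cells it was lower in quiescence by -0.70 (SE 0.21), with differences of -1.04, -0.61 and -0.34.

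**Figure D1:**
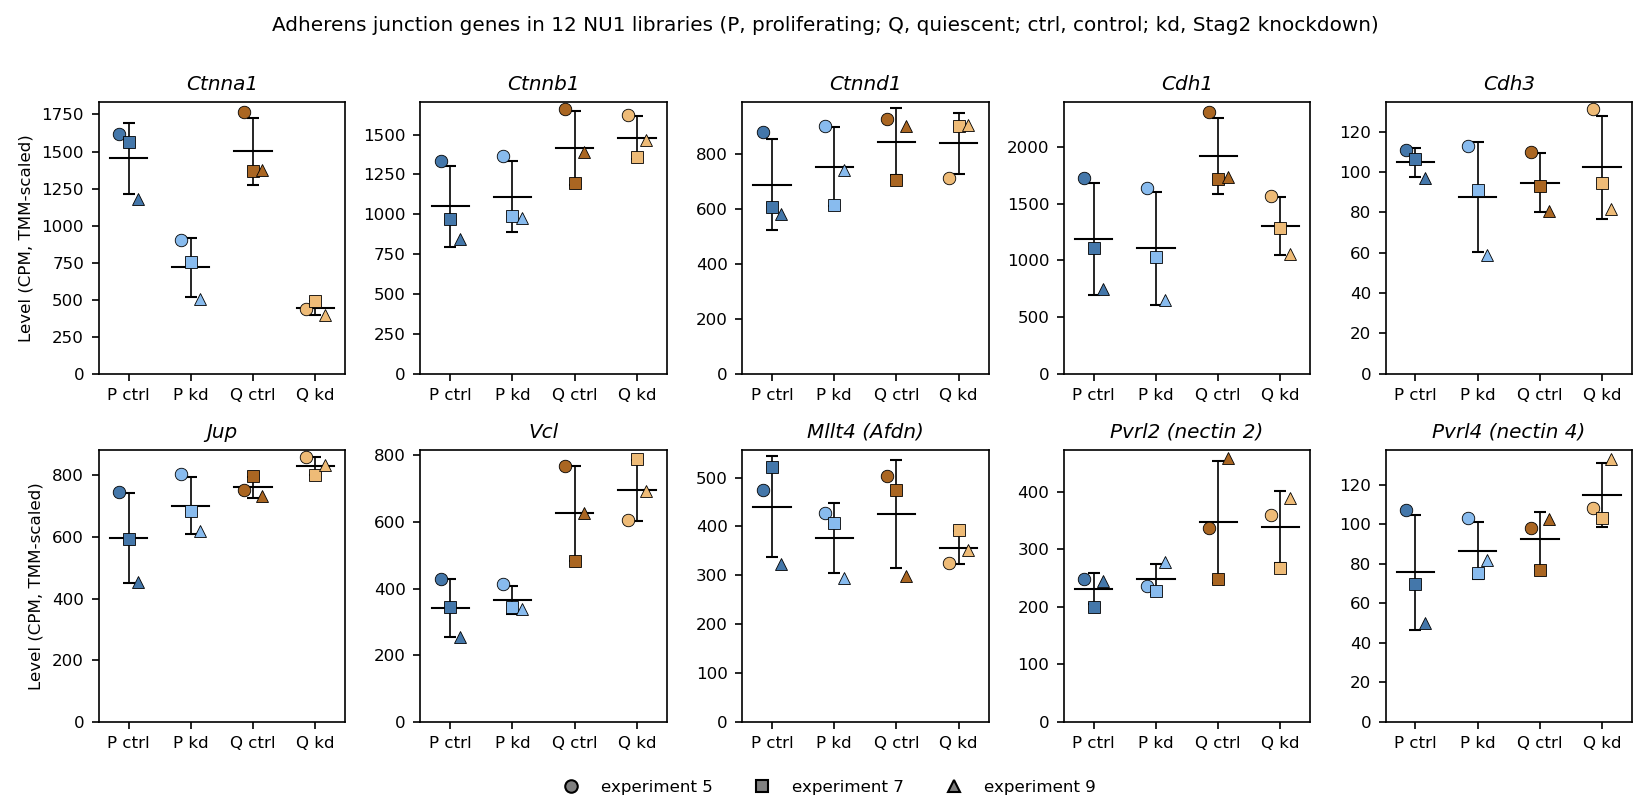
Level in CPM (vertical axes, from 0) of the 10 junction genes in the 4 groups (horizontal axes), with 1 point per library, the shape giving the experiment, and lines and bars giving mean and SD (n = 3). Ctnna1 lies at 399 to 493 CPM in quiescent knockdown and 1368 to 1764 CPM in quiescent control libraries, while Vcl is higher in quiescent than in proliferating libraries with either hairpin.

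Alpha-catenin was also set against the genes of its partners within each library, as ratios of CPM per kb. The ratio of Ctnna1 to the sum of Ctnnb1 and Jup, the genes of its direct binding partners, was 0.677, 0.871 and 0.784 in proliferating controls of experiments 5, 7 and 9. After knockdown it was 0.361, 0.394 and 0.276. In quiescent cells the same ratio was 0.629, 0.600 and 0.559 in control and 0.153, 0.199 and 0.151 in knockdown libraries. All 4 groups thus occupied separate ranges, with quiescent knockdown the lowest. The transcript ratio of alpha-catenin to its partners fell from 0.596 ± 0.0349 to 0.168 ± 0.0270 (SD, n = 3) in quiescent cells. Ctnna1 was chosen for its lower level after knockdown and its partners changed little, so the lower ratios after knockdown restate that choice. These are RNA ratios and say nothing of protein.

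The ratio of Ctnna1 to the summed cadherins Cdh1 and Cdh3 was 0.843 ± 0.190 in proliferating control, 0.447 ± 0.0723 in proliferating knockdown, 0.531 ± 0.0112 in quiescent control and 0.228 ± 0.0392 in quiescent knockdown libraries (SD, n = 3). Both cadherin and catenin ratios were lower in knockdown than in control libraries of each experiment. The ratio of Vcl to Ctnna1 went the other way, from 0.276 to 0.358 in quiescent control to 1.08 to 1.36 in quiescent knockdown libraries. These knockdown differences in the ratios also follow largely from the choice of Ctnna1 and are not separate findings. Vinculin RNA per kb therefore exceeded alpha-catenin RNA only in the quiescent knockdown group among the 4 groups.

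**Figure D2:**
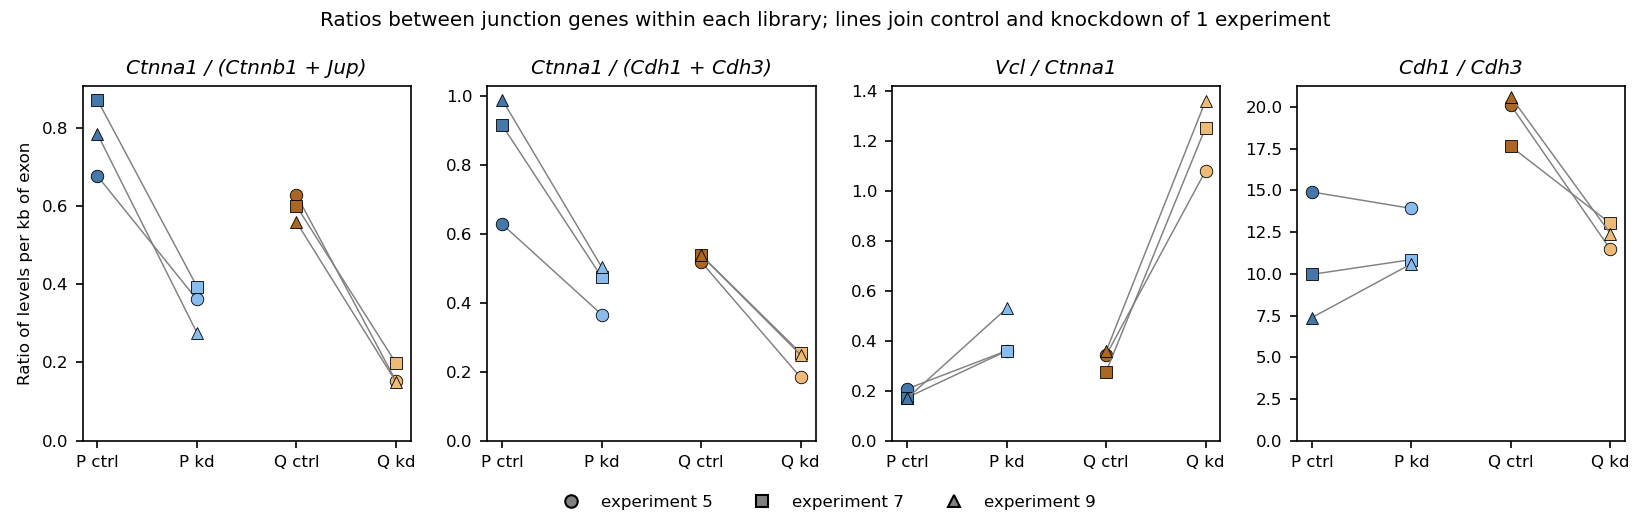
Ratios of CPM per kb of exon within each library (vertical axes, from 0) for 4 gene combinations, by group, with lines joining control and knockdown of the same experiment. The ratio of Ctnna1 to Ctnnb1 plus Jup drops along all 6 lines, and the ratio of Cdh1 to Cdh3 drops along the 3 quiescent lines, from 17.6 to 20.6 down to 11.5 to 13.0.

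The other 9 genes showed no log2 fold change as large as that of Ctnna1 under knockdown, for which Ctnna1 had been chosen. In proliferating cells their log2 fold changes ran from -0.26 (Cdh3) to 0.23 (Jup), with a median of 0.10, and the median over all genes was -0.0022. In quiescent cells they ran from -0.56 (Cdh1) to 0.31 (Pvrl4), with a median of 0.07, and the median over all genes was 0.02. Past the edgeR threshold were 0 of the 9 in either state, against 0.0242% and 0.435% of all genes. DESeq2 also called 0, against 0.0967% and 3.14%. An unadjusted p under 0.05 was found for 0 of the 9 in either state, against 1.84% of all genes in proliferating and 12% in quiescent cells. With experiment as a term it was found for 1 of the 9 in each state, against 5.2% and 20.4% of all genes. That gene was Cdh3 in proliferating and Cdh1 in quiescent cells. Groups did not overlap for 0 of the 9 in proliferating and 3 of the 9 in quiescent cells, where 5.31% and 19.1% of all genes did not overlap.

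Of those 3, Cdh1 was the lower one. It encodes E-cadherin, the main epithelial cadherin (ENSMUSG00000000303.12, chr8:106603351-106670246, + strand). In quiescent cells of experiments 5, 7 and 9 its level was 2311, 1714 and 1737 CPM in control and 1568, 1285 and 1058 CPM in knockdown libraries. Each quiescent knockdown library was below every quiescent control, and the within-experiment differences were -0.56, -0.42 and -0.72 on the log2 scale (fitted -0.56, SE 0.35). The fit with experiment as a term gave -0.57 (SE 0.18). In proliferating cells Cdh1 was 1723, 1108 and 747 CPM in control and 1638, 1034 and 652 CPM in knockdown libraries. There the spread between experiments was much wider than the knockdown difference, which was -0.07, -0.10 and -0.20 within experiments.

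Cdh3 encodes P-cadherin, a cadherin of basal epithelial cells, and its gene ends 46053 bases before the start of Cdh1 (ENSMUSG00000061048.8, chr8:106510891-106557297, + strand). Its level was 80.8 to 110.2 CPM in quiescent control and 81.7 to 131 CPM in quiescent knockdown libraries, so the neighbouring gene did not share the lower values of Cdh1. In proliferating cells its within-experiment knockdown differences were 0.03, -0.22 and -0.72. The ratio of Cdh1 to Cdh3 per kb was 19.4 ± 1.59 in quiescent control and 12.3 ± 0.783 in quiescent knockdown libraries (SD, n = 3). In proliferating cells the ratio was 10.8 ± 3.82 in control and 11.8 ± 1.85 in knockdown libraries (SD, n = 3).

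Ctnnb1 encodes beta-catenin, which serves both the junction and Wnt signalling (ENSMUSG00000006932.17, chr9:120929216-120960507, + strand). Its knockdown log2 fold changes were 0.08 (SE 0.20) in proliferating and 0.07 (SE 0.20) in quiescent cells. Jup encodes plakoglobin, its close relative, which also sits in desmosomes (ENSMUSG00000001552.14, chr11:100368958-100397763, - strand). Jup was 734 to 799.8 CPM in quiescent control and 801 to 859 CPM in quiescent knockdown libraries, which did not overlap, but the fitted difference was small (0.13, SE 0.17). In proliferating cells it was higher after knockdown in 3 of 3 experiments, by 0.11, 0.20 and 0.45. Ctnnd1 encodes p120-catenin (ENSMUSG00000034101.14, chr2:84600071-84650765, - strand), and its fitted differences were 0.13 (SE 0.20) and -0.01 (SE 0.20).

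Vcl, the gene of vinculin, differed by 0.10 (SE 0.21) in proliferating and 0.15 (SE 0.21) in quiescent cells, where the experiments split at -0.35, 0.71 and 0.14. Mllt4, the gene of afadin (ENSMUSG00000068036.15, chr17:13760539-13906150, + strand), was lower after knockdown in 3 of 3 experiments in proliferating cells, by -0.15, -0.36 and -0.14. In quiescent cells its differences were -0.63, -0.27 and 0.23. Pvrl2 (ENSMUSG00000062300.14, chr7:19716644-19750483, - strand) differed by 0.10 (SE 0.22) and -0.04 (SE 0.22). Pvrl4 (ENSMUSG00000006411.12, chr1:171370099-171388598, + strand) was 76.9 to 103 CPM in quiescent control and 103 to 133 CPM in quiescent knockdown libraries, which did not overlap but came close. These genes of the actin and nectin arms differed less than Ctnna1, which had been chosen for its difference, so nothing is concluded from that contrast.

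**Figure D3:**
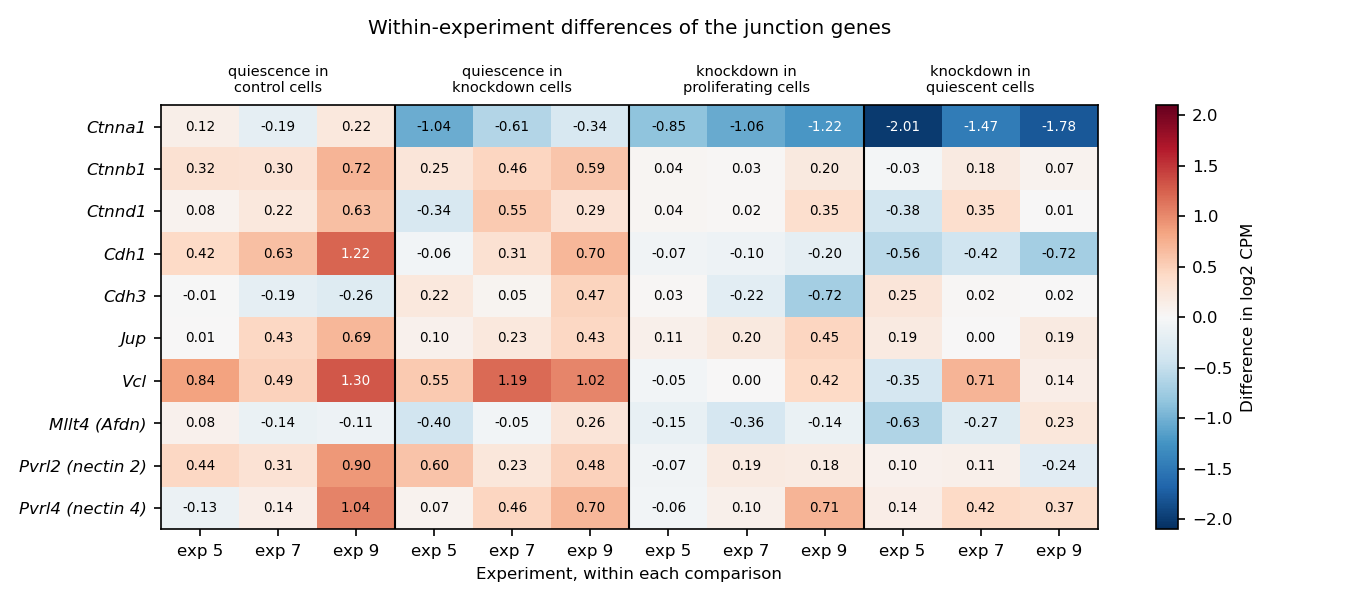
Differences in log2 CPM within experiments 5, 7 and 9 (columns) for the 10 junction genes (rows) in 4 comparisons, printed and coloured from blue (lower) to red (higher). Ctnna1 runs from -2.01 to -0.85 in the 6 knockdown columns, Cdh1 from -0.72 to -0.42 in the quiescent knockdown columns, and Vcl from 0.49 to 1.30 in the 6 quiescence columns.

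The rule that chose the genes did not use quiescence, which was tested for the 9 genes other than Ctnna1. The genes were nonetheless listed with earlier results of these data known. In control cells 1 of the 9, Vcl, rose past the edgeR threshold and 0 fell, where 20.0% of all genes were past it (8.33% higher). Libraries of the 2 states did not overlap for 1 of the 9 in control cells, Vcl, where 17.1% of all genes were higher without overlap, and for 2 of the 9 in knockdown cells, Vcl and Pvrl4, where 18.1% were. In control cells the median log2 fold change of the 9 was 0.35, against 0.0047 over all genes, and 7 of the 9 had a positive value, against 50.4% of all genes. In knockdown cells the median of the 9 was 0.24, against 0.0045 over all genes, and 8 of the 9 had a positive value, against 50.5%. When experiment was a term in the fit, 4 of the 9 rose, Vcl, Cdh1, Ctnnb1 and Pvrl2, where 35.3% of all genes were past the threshold (16.8% higher). In knockdown cells 1 of the 9, again Vcl, was past it and higher, where 18.4% of all genes were past it (7.59% higher). With that term, 3 of the 9 rose there, Vcl, Ctnnb1 and Pvrl2, where 33.0% of all genes were past it (15.9% higher). As shares of the 9, these calls were 11.1% in each cell kind without the term, and 44.4% and 33.3% with it. The count in control cells moved to 4 without the proliferating control of experiment 5, to 2 without the quiescent control of experiment 7, and to 0 without any of the 3 libraries on which the call of Vcl rested. In knockdown cells it moved to 0 without the proliferating knockdown of experiment 7.

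Vcl (ENSMUSG00000021823.10, chr14:20929398-21033676, + strand) rose in quiescence with either hairpin. Its levels in experiments 5, 7 and 9 were 428, 344 and 254 CPM in proliferating control and 769, 482 and 626 CPM in quiescent control libraries. In knockdown cells they were 413, 344 and 340 CPM when proliferating and 604, 788 and 692 CPM when quiescent. All 6 quiescent libraries were above all 6 proliferating ones. On the log2 scale the rise was 0.87 (SE 0.21) in control cells, at an edgeR adjusted p of 0.0162, and 0.92 (SE 0.21) in knockdown cells, at 0.0131, higher in 3 of 3 experiments in each. In control cells the call was lost without the proliferating control of experiment 7 or 9 (adjusted p 0.0554 and 0.0585) or the quiescent control of experiment 5 (0.0619), and in a fit of these 6 libraries alone (0.0576). In knockdown cells it was lost without the proliferating knockdown of experiment 7 (0.0532).

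Vinculin is a textbook target of serum response factor, which binds the CArG box, so the RefSeq promoters of the members were searched for that box. The stretch that holds it in Vcl is shown with the box in capitals, 5′ to 3′ on the + strand (GRCm38.p6 chr14:20929161-20929190). The first base of the box lies 227 bases before the start site.
Vcl: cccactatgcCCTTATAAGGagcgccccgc
The search covered 250 bases upstream of each start site on both strands, since the box reads alike on either, and 7 members had a RefSeq promoter. Vcl was the 1 member of the 7 with a CArG box, which 1.62% of 27025 genes had. The E-box CACCTG, the letters bound by Snail and Zeb repressors of Cdh1, was also searched on both strands. It was found in 1 member of the 7, Pvrl2, and in 19.4% of genes. Ctnna1, Cdh1 and Cdh3 had no RefSeq promoter entry, so neither motif was searched in them. The motifs were chosen with the rise of Vcl known, and a match describes the letters only.

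Cdh1, Ctnnb1 and Pvrl2 missed the threshold in control cells and passed it when experiment was a term in the fit. DESeq2 called Pvrl2 without that term. Cdh1 was higher in quiescent control than in proliferating control libraries by 0.42, 0.63 and 1.22 on the log2 scale in experiments 5, 7 and 9. The fitted rise was 0.69 (SE 0.35) at an edgeR adjusted p of 0.184, and 0.76 (SE 0.18) at 0.00828 with the term. The groups overlapped because the proliferating control of experiment 5, at 1723 CPM, exceeded the quiescent control of experiment 7, at 1714 CPM. In knockdown cells the rise of Cdh1 was 0.23 (SE 0.35, edgeR adjusted p 0.676), with differences of -0.06, 0.31 and 0.70, and the fit with the term left it short of significance (adjusted p 0.207).

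Ctnnb1 was 1332, 971 and 846 CPM in proliferating control and 1660, 1196 and 1392 CPM in quiescent control libraries of experiments 5, 7 and 9. It was higher in quiescence in 3 of 3 experiments with either hairpin. Its log2 fold changes were 0.43 (SE 0.20, edgeR adjusted p 0.156) in control and 0.42 (SE 0.20, edgeR adjusted p 0.178) in knockdown cells. With the term they were 0.44 (adjusted p 0.0214) and 0.43 (adjusted p 0.0244) in edgeR.

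Pvrl2, which encodes nectin 2, was 249, 200.1 and 246 CPM in proliferating control and 337, 248 and 459 CPM in quiescent control libraries of experiments 5, 7 and 9. It was likewise higher in 3 of 3 experiments with either hairpin. The fitted rise was 0.59 (SE 0.22) in control cells, at an edgeR adjusted p of 0.0767, and 0.45 (SE 0.22) in knockdown cells, at 0.167. With the term these were 0.56 (adjusted p 0.00850) and 0.44 (adjusted p 0.0264) in edgeR.

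The remaining 5 genes were not past the threshold in either fit. For Jup the quiescence log2 fold change was 0.35 (SE 0.17) in control and 0.24 (SE 0.17) in knockdown cells. For Ctnnd1 it was 0.29 (SE 0.20) and 0.16 (SE 0.20), and for Pvrl4, the gene of nectin 4, 0.29 (SE 0.24) and 0.41 (SE 0.24). For Cdh3 it was -0.15 and 0.23 (SE 0.23 each), and for Mllt4 -0.05 and -0.08 (SE 0.23 each). The edgeR adjusted p of these genes ran from 0.169 (Jup in control cells) to 0.907 (Mllt4 in control cells).

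**Figure D4:**
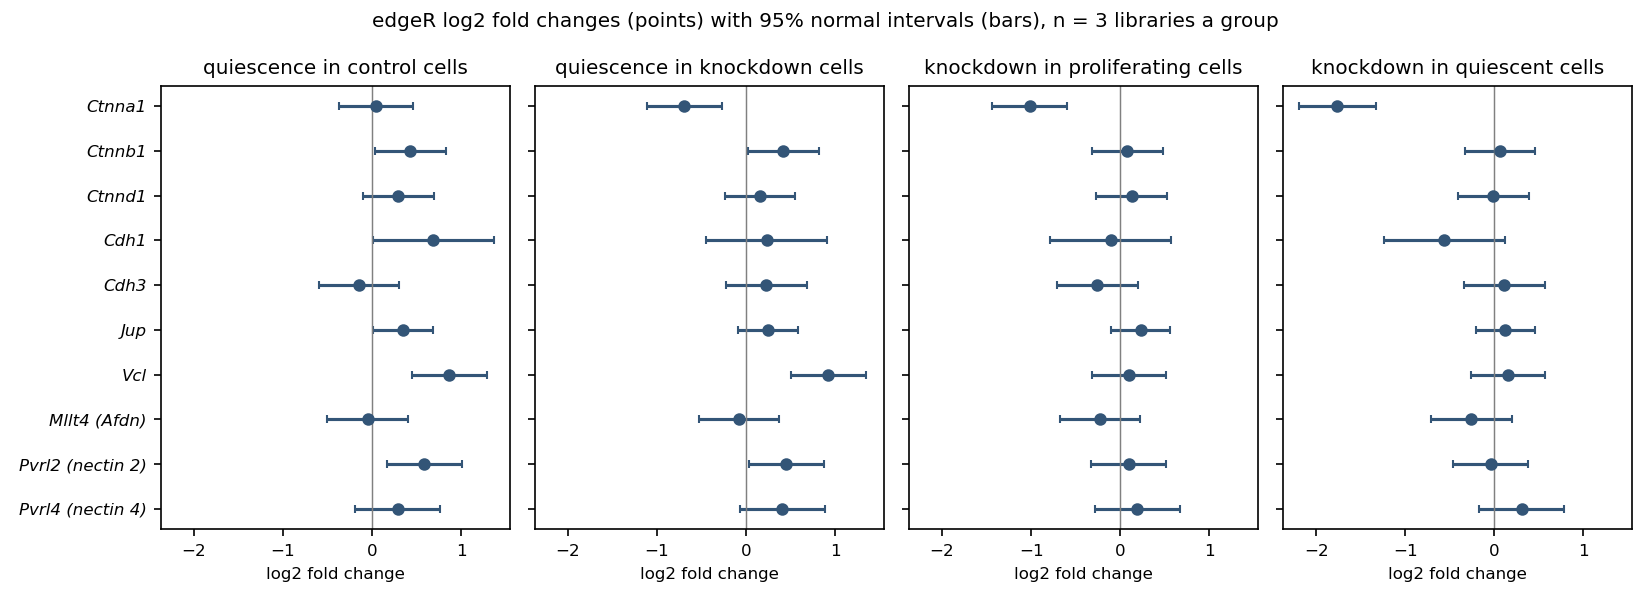
Fitted log2 fold changes (points) of the 10 junction genes in 4 comparisons, with bars giving the 95% normal interval (n = 3 libraries a group). Such bars make no allowance for the few libraries, as the edgeR test does, so they are too narrow to be read as a test. For quiescence in control cells the bars of Cdh1, Ctnnb1 and Jup exclude 0, while their unadjusted edgeR p was 0.0729, 0.0565 and 0.0642. Ctnna1 stands at -1.02 and -1.76 in the knockdown panels and at 0.05 for quiescence in control cells, and Vcl at 0.87 and 0.92 in the quiescence panels.

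Experiments differed in ways the groups did not explain. In proliferating controls, experiment 5 had the highest level of 9 of the 10 genes, and experiment 9 the lowest of 9. Cdh1 there was 2.31-fold higher in experiment 5 than in experiment 9, and Pvrl4 2.15-fold. In quiescent controls the corresponding ratios were 1.33 and 0.957. There experiment 5 was highest for 7 of the 10 genes, while experiment 7 was lowest for 7 and experiment 9 for 3. These orders were not counted over all genes, so they are not read as a trait of the junction genes. The quiescence differences of Cdh1, Ctnnb1, Ctnnd1, Jup, Vcl, Pvrl2 and Pvrl4 in control cells were largest in experiment 9, at 0.63 to 1.30 on the log2 scale.

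Other genes of the junction were taken from 6 lists of 96 genes, of which 82 could be tested. After knockdown 0 of the 82 were past the edgeR threshold in either state, against 0.0242% and 0.435% of all genes. An unadjusted p under 0.05 was found for 1 of the 82 in proliferating cells, against 1.84% of all genes. In quiescent cells it was found for 11 of the 82, or 13.4%, against 12% of all genes. DESeq2 called 0 and 4 of the 82, against 0.0967% and 3.14% of all genes. With experiment as a term edgeR called 0 and 2 of the 82, against 0.0242% and 3.55%. These list counts were near the shares of all genes. The lists were also chosen with earlier results of these data known, and their calls for quiescence in control cells stand against 8.33% higher and 11.7% lower over all genes. In the fit with experiment as a term, these shares were 16.8% higher and 18.5% lower.

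Other cadherins and catenins held 15 genes, of which 8 could be tested. The other alpha-catenin genes, Ctnna2 and Ctnna3, had at most 0 and 1 counts in any library, and so were not tested. They were named after their values were seen. With quiescence in control cells 1 of the 8 rose and 2 fell, with a median of 0.02. These 3 calls became 1 without the proliferating control of experiment 7 or 9 or the quiescent control of experiment 5 or 7. Ctnnal1, which encodes an alpha-catenin-like protein, fell from 8.26 ± 4.07 to 1.03 ± 0.651 CPM (SD, n = 3), which is -2.98 on the log2 scale (SE 0.63) at an edgeR adjusted p of 0.00769. Cdh13, a cadherin anchored without a cytoplasmic tail, fell from 2.42 ± 0.975 to 0.343 ± 0.334 CPM (SD, n = 3), which is -2.77 on the log2 scale (SE 0.78) at an edgeR adjusted p of 0.0293. Cdh2, the gene of N-cadherin, was also named after its values were seen. It was 121 ± 31.3 CPM in proliferating and 143 ± 61.3 CPM in quiescent controls (SD, n = 3) and was not past the threshold (edgeR adjusted p 0.699).

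Among 12 other nectins and afadin partners 1 rose in quiescent controls and 0 fell, with a median of -0.06, and 2 rose with experiment as a term. The gene that rose was Camsap3, which encodes a protein that tethers microtubule minus ends at the junction. In knockdown cells it rose too. In control cells Camsap3 went from 63.8 ± 6.80 to 109 ± 8.07 CPM (SD, n = 3), which is 0.77 on the log2 scale (SE 0.12) at an edgeR adjusted p of 0.00119.

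Among 28 actin linkers of the junction 5 rose and 3 fell in quiescent controls, with a median of 0.04. With experiment as a term, 9 of them rose and 4 fell. The 8 calls became 4 or 5 without the proliferating control of experiment 7 or 9, the quiescent control of experiment 5 or 7 or the quiescent knockdown of experiment 9. Shroom3, an organiser of apical actomyosin, went from 164 ± 29.7 to 428 ± 97.2 CPM (SD, n = 3), which is 1.38 on the log2 scale (SE 0.20) at an edgeR adjusted p of 0.000865. Enah, an actin filament elongation factor, went from 75.6 ± 15.9 to 153 ± 34.6 CPM (SD, n = 3), which is 1.02 on the log2 scale (SE 0.22) at an edgeR adjusted p of 0.00897. Calls among the actin linkers went both ways, as they did over all genes (8.33% higher and 11.7% lower), so no trait of the list is read from them. Vcl was not alone among actin-binding junction genes in rising.

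Of 11 tested regulators of Cdh1 transcription and turnover 0 rose and 1 fell in quiescent controls, with a median of -0.16, and with the term 2 fell. The 1 call became 2 without the proliferating control of experiment 5 or the quiescent control of experiment 7. The gene that fell was Snai2, which encodes Slug, a repressor of Cdh1. It was 18.9 ± 11.8 CPM in proliferating control and 2.98 ± 0.869 CPM in quiescent control libraries (SD, n = 3), which is -2.66 on the log2 scale (SE 0.46) at an edgeR adjusted p of 0.00259.

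Of 14 tested genes of the beta-catenin destruction complex and its transcriptional arm 2 rose and 2 fell in quiescent controls, with a median of 0.18, and with the term 5 rose and 4 fell. The 4 calls became 2 without the proliferating control of experiment 7 or 9 or the quiescent control of experiment 5. Rnf43, a membrane ligase that limits Wnt receptors, rose from 0.943 ± 0.541 to 4.63 ± 1.43 CPM (SD, n = 3), which is 2.29 on the log2 scale (SE 0.65) at an edgeR adjusted p of 0.0306. Ccnd1, which encodes cyclin D1 and responds to growth factors as well as to beta-catenin, fell from 2149 ± 193 to 617 ± 209 CPM (SD, n = 3), which is -1.80 on the log2 scale (SE 0.23) at an edgeR adjusted p of 0.000427. Calls in this arm likewise went both ways, where 8.33% of all genes were higher and 11.7% lower, and no trait of the arm is read from them.

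Of 9 tested desmosome genes, which share plakoglobin with the adherens junction, 3 rose and 1 fell in quiescent controls, with a median of 0.62. These 4 calls became 1 without the proliferating control of experiment 7 or the quiescent control of experiment 5, and 2 without either control library of experiment 9. Dsc2, a desmosomal cadherin, rose from 70.2 ± 34.2 to 159.8 ± 50.4 CPM (SD, n = 3), which is 1.19 on the log2 scale (SE 0.37) at an edgeR adjusted p of 0.0447. Pkp1, a desmosomal plaque protein of stratified layers, fell from 232 ± 47.5 to 115 ± 14.4 CPM (SD, n = 3), which is -1.02 on the log2 scale (SE 0.28) at an edgeR adjusted p of 0.0286.

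**Figure D5:**
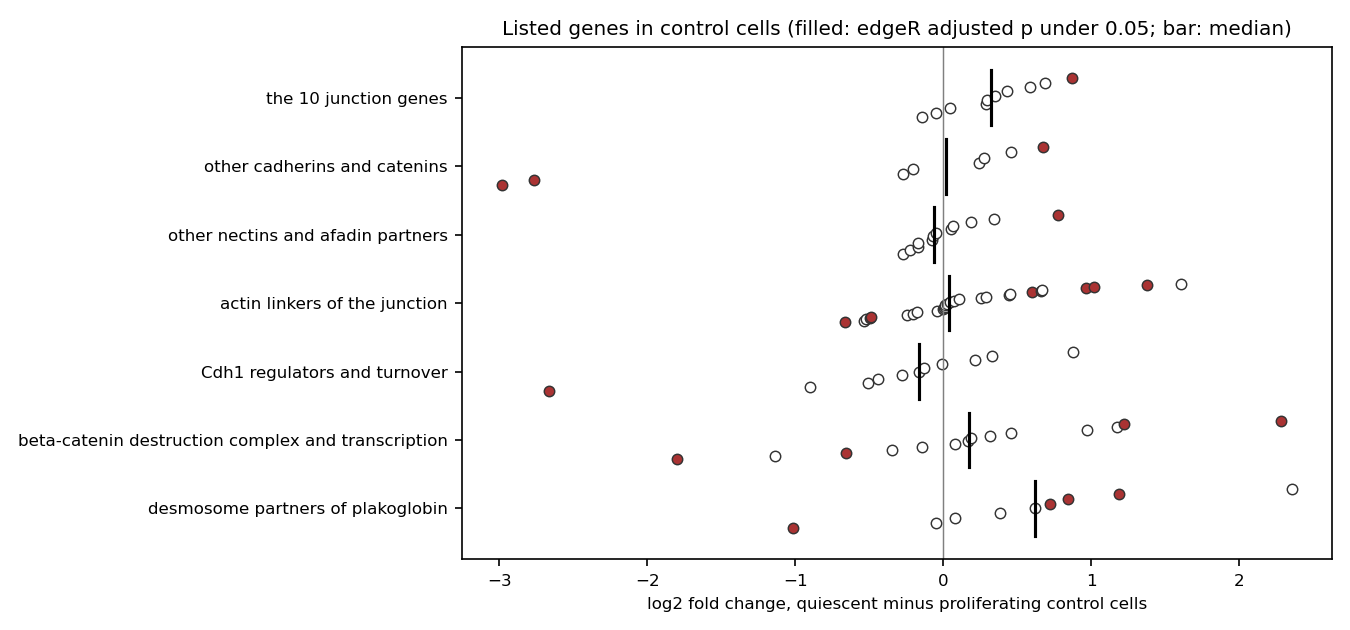
Log2 fold change of quiescence in control cells (horizontal axis) for the 10 junction genes and 6 lists of related genes (rows), 1 point per gene, filled where the edgeR adjusted p is under 0.05 (Ctnna1, which was not tested, is unfilled), with a bar at the median. The medians run from -0.16 for the Cdh1 regulators to 0.62 for the desmosome genes.

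The genes whose level was most like that of Ctnna1 were found by the Pearson r of log2 CPM over the 12 libraries, among 10300 other genes whose mean log2 CPM reached 2. The 5 highest were Osgep (r = 0.975), Stag2 (0.970), Prkaa1 (0.969), Rarg (0.965) and Wwp1 (0.964). The 12 libraries share their groups and experiments, so these values only describe the pattern. Each of the 5 was lower after knockdown in both states, and Wwp1, for example, had log2 fold changes of -0.58 and -1.19. Lower values were to be expected from the choice of these genes by their likeness to Ctnna1. Among the other 9 junction genes the r with Ctnna1 ran from -0.36 for Pvrl4 to 0.58 for Mllt4.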

How the data were processed

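RNA from 12 NU1 libraries was sequenced after poly(A) selection with a strand-marking kit, per the labels' protocols. The authors deposited raw counts per gene, and the submitters' processing notes name Bowtie, TopHat, HTSeq, DESeq2 and mm10. The annotation and the strand setting of the counting are not given in the sources used here. Totals of 14524429 to 21987539 counts per library set the precision. Replicates differed by more than sampling noise (chi-square per degree of freedom 36.6 to 99.7).

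Counts were fitted with edgeR 4.0.16 in R 4.3.3 (quasi-likelihood test, 4 group means, TMM, filterByExpr with a minimum count of 10), with Benjamini-Hochberg adjustment over 12406 genes and a threshold of 0.05. Log2 CPM used a prior count of 2. SE is the log2 fold change divided by the square root of F. On simulated data for quiescence in control cells (12406 genes), 47% of 100 genes changed by 1 on the log2 scale and 89% of 100 changed by 2 were recovered, and 10 unchanged genes were called. Experiment numbers coincide with the labelled batches and so pair the libraries: deviations from group means correlated at 0.526 on average between libraries of the same number (18 pairs, lowest 0.225) and -0.259 otherwise (36 pairs). Deviations within a group sum to 0, so the negative average largely follows from the positive one and is no separate evidence. Alternatives were a replicate block (the term for experiment), other size factors, DESeq2 1.42.0, other filters, the compared libraries alone and leaving out each library.

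The members and lists were chosen with earlier results of these data known. Ctnna1 was treated as a description in every comparison, although a test of quiescence had been planned, since its libraries chose the list. Its calls under knockdown are counted only beside those of all genes. Named genes are the 10 members, Stag2, the 2 genes of each list with the largest change among those called for quiescence with the control hairpin, and the 5 genes most correlated with Ctnna1. Cdh2, Ctnna2, Ctnna3 and the cell type markers were named outside this rule. Promoter sequence came from RefSeq (GRCm38.p6), where 7 members had an entry.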

Additional observations from a re-analysis of the deposited data

How the results depend on the processing

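Under the other settings, 304 of 324 tested quiescence values of the 9 members other than Ctnna1 kept their direction and side of the threshold, 10 passed it, 5 lost it and 5 changed sign. Of 566 values given as a description, 44 changed sign, 42 of them when 1 library was left out, and 0 of the 36 knockdown values of Ctnna1 did. Genes called for quiescence in control cells numbered 2481, against 4374 with the replicate block, 1582 with the compared libraries only and 1394 to 3078 when 1 library was left out. In knockdown cells they numbered 2279, against 4096 with the block and 1186 to 2408 when 1 was left out. Knockdown in proliferating cells gave 3 calls, 12 with DESeq2, 1 with the compared libraries only and 1 to 3 when 1 was left out. In quiescent cells it gave 54, against 440 with the block, 390 with DESeq2 and 5 to 64 when 1 was left out. The interaction gave 0, 6 with DESeq2 and 0 to 0 when 1 was left out. Of the 9 members other than Ctnna1, 1 was called for quiescence in control cells, 4 with the block, 2 with DESeq2 (Vcl and Pvrl2), 0 with the compared libraries only (Vcl adjusted p 0.0576) and 0 to 4 when 1 was left out. In knockdown cells the 1 call became 3 with the block and 0 to 1 when 1 was left out. For knockdown, the members called were 1 with DESeq2 against 0 in proliferating cells (0 to 0 when 1 was left out) and 0 to 1 in quiescent cells, where the count of 1 became 0 without the quiescent knockdown of experiment 5 or 9. The log2 fold change of Ctnna1 ran from -1.21 to -0.82 and from -1.84 to -1.63. When 1 library was left out, the log2 fold change of Mllt4 ran from -0.23 to 0.15 for quiescence in control cells. It was positive, at 0.01, 0.09 and 0.15, without the proliferating control of experiment 5 or 7 or the quiescent control of experiment 9. In knockdown cells Mllt4 ran from -0.23 to 0.022, positive without the proliferating knockdown of experiment 5, and Cdh1 from -0.037 to 0.63, negative without the proliferating knockdown of experiment 9. The cause was not tested. The block changed no call of a member beyond those of Cdh1, Ctnnb1 and Pvrl2. With it, list calls for quiescence in control cells became 2 (nectins), 13 (actin linkers), 2 (Cdh1 regulators) and 9 (beta-catenin genes), and the actin linkers had 5 calls without a filter or with the compared libraries only. When 1 library was left out, these list calls ran from 1 to 3 (cadherins and catenins), 1 to 1 (nectins), 4 to 8 (actin linkers), 1 to 2 (Cdh1 regulators), 2 to 6 (beta-catenin genes) and 1 to 4 (desmosome genes).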
